A study of Mus musculus with 6 samples.

Results

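The chromatin around 9 genes of bone morphogenetic protein (Bmp) signalling and its Msx targets was examined in the palate of C57BL/6 mouse embryos at E14.5. The 9 genes were the ligands Bmp2, Bmp4 and Bmp7, the receptors Bmpr1a, Bmpr1b and Bmpr2, the secreted antagonist Nog and the homeobox factors Msx1 and Msx2, out of 21911 protein-coding gene symbols on the mouse genome (mm10). They were chosen by name. A peak was assigned to a gene when its midpoint lay in the gene body or within 100 kb of the start site. ATAC-seq, in which the Tn5 transposase cuts accessible DNA, had been run on 3 epithelium libraries and 3 mesenchyme libraries of tissue with no treatment or engineered allele named in the labels. The epithelium, basal and periderm layers together, had been peeled from the palate after a short trypsin digest, and the tissue left behind, largely mesenchyme, was the comparison. Each library was made from about 20000 cells, pooled from 3 embryos in the series' design text, from 5 palatal shelves in the treatment protocol and from 7 embryos in the methods of the study.

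Bmp ligands bind a complex of type I receptors (such as Bmpr1a and Bmpr1b) and type II receptors (such as Bmpr2), which phosphorylate Smad proteins that enter the nucleus and act on target genes. Msx1 and Msx2 are homeobox transcription factors that respond to Bmp signals in many embryonic tissues, and Noggin, the product of Nog, binds Bmp ligands outside the cell and keeps them from their receptors. In the developing palate, Bmp ligands and Msx1 are known for the exchange of signals between epithelium and mesenchyme, and loss of Msx1 gives a cleft palate in mice. The peak lists say where chromatin was accessible, not how much a gene was transcribed.

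Each library had been deposited as a list of peaks, the nucleosome-free regions called from short fragments, with positions and no read counts. The lists held 270003 to 349322 peaks in epithelium and 295141 to 341741 in mesenchyme, with median widths of 331 to 344 bp. Read depth is unknown, and the absence of a peak does not show that chromatin was closed. Of 10 epithelial marker genes, 3 had more peaks in epithelium (Trp63, Dsg3 and Perp) and none fewer, and 30 epithelium-only regions stood against 5 mesenchyme-only regions over their windows. Of 10 mesenchymal marker genes, 1 had fewer peaks in epithelium (Prrx1), and the same regions numbered 6 and 24. None of the 18 markers of endothelium, blood, muscle and nerve passed the same test in peak number. In covered bases 3 did, Tek (log2 difference 0.83) and Gata1 (0.76) with more in epithelium and Cd68 (-0.31) with fewer. The summed peak numbers of these markers overlapped between the tissues in each of the lists (for nerve and glia, 176 to 215 scaled peaks in epithelium and 145 to 180 in mesenchyme). In bulk tissue, fewer cells of a type and less accessible chromatin per cell cannot be told apart. All p-values measure the spread between these libraries.

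Peaks from any of the 6 lists sharing 1 bp or more were joined into regions. The 9 gene windows held 711 regions, of which 336 (47.3%) had a peak in a single library and 375 had a peak in at least 2. A region with a peak in all 3 libraries of a tissue and in none of the other was called tissue-only. There were 8 epithelium-only regions (2.13% of 375) and 8 mesenchyme-only regions (2.13%), beside 2.98% and 2.20% of the 342690 such regions in the genome. The shares at these genes were thus near or below those of the genome, which also holds regions outside gene windows. Over the windows of all 21724 genes tested, 17341 epithelium-only and 19080 mesenchyme-only regions stood among 990615, a region counting once for each gene. Beside those counts the shares at the 9 genes were not below. For the 7 genes with a tissue-only region, 200 bases are printed from the region whose narrowest peak was widest. These sequences are centred on the stretch shared by all 3 peaks. They are shown because the peak calls of the tissues differed there in every library, though no region was tested. They are the plus strand of mm10 (GRCm38), and capitals mark matches to the searched motifs.
Nog, epithelium-only, chr11:89239939-89240138: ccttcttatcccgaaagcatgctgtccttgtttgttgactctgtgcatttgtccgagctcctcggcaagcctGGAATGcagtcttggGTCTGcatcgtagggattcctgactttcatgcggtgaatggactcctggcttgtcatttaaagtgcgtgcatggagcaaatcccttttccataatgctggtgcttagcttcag
Msx2, epithelium-only, chr13:53470858-53471057: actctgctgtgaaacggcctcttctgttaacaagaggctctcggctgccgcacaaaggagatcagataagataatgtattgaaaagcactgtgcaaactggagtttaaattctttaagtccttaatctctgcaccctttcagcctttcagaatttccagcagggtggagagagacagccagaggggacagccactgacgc
Bmp4, epithelium-only, chr14:46306863-46307062: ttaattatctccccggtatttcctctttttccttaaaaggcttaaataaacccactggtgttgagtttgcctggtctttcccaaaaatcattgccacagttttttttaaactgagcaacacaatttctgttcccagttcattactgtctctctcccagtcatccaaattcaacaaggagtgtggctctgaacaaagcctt
Bmpr1b, epithelium-only, chr3:142120530-142120729: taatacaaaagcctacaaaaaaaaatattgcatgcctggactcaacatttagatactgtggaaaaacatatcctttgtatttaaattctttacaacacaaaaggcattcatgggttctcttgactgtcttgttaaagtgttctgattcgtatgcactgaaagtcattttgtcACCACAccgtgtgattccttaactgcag
Bmpr1a, mesenchyme-only, chr14:34445509-34445708: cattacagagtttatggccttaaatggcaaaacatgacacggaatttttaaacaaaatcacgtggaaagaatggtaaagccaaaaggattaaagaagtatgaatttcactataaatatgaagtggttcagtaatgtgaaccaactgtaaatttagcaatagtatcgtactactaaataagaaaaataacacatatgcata
Bmpr2, mesenchyme-only, chr1:59784283-59784482: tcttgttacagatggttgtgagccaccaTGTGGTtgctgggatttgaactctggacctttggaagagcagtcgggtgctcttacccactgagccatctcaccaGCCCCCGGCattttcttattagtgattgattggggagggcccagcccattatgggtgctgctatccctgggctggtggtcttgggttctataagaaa
Msx1, mesenchyme-only, chr5:37767382-37767581: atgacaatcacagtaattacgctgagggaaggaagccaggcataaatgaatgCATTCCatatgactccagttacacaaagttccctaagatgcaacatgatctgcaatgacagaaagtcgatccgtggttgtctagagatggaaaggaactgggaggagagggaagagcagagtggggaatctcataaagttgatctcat
The 200-base windows of all 16 regions were searched on both strands for the Smad palindrome GTCTAGAC, the Smad box GTCTG, the GC-rich Smad1/5 site GGCGCC, the homeobox core TAATTG, the GRHL element AACCGG, AP-2 GCCNNNGGC, TEAD GGAATG, AP-1 TGANTCA, KLF CCGCCC, an E-box CAGGTG, RUNX TGTGGT, FOX TGTTTAC and NF1 by its name. No motif of the list contains another.

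The Smad box, the short element that Smad complexes contact, was found in 4 of 8 epithelium-only windows and in 2 of 8 mesenchyme-only windows. Among all tissue-only windows of the genome, 43.8% of the epithelium-only and 45.4% of the mesenchyme-only ones held it, so a match to these 5 letters was common. All 3 epithelium-only windows at Nog held a Smad box. In 2 of them a TEAD match stood in the same window. The printed one carries both, TEAD at base 73 and the Smad box at base 88 of the window. TEAD matches were present in 20.7% of all epithelium-only windows. Among the mesenchyme-only windows, 1 of 8 held a TEAD match, the window printed for Msx1, beside 12% genome-wide. The remaining Nog window held a homeobox core, present in 6.84% of epithelium-only windows. The GC-rich Smad1/5 site was found once, in the epithelium-only intron of Bmpr1a, and 0.999% of epithelium-only windows held it. RUNX matches lay in 3 of 8 mesenchyme-only windows (one each at Bmpr2, Nog and Msx1) and in 1 of 8 epithelium-only windows (Bmpr1b), beside 25.3% and 16.2% genome-wide. No Smad palindrome, GRHL, AP-1, KLF, FOX or NF1 match was found in the 16 windows. The windows printed for Bmp4, Bmpr1a and Msx2 held no match to any of the 13 motifs.

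The printed Bmpr2 window was masked as repeat over 100% of its bases, as were 4.65% of the mesenchyme-only windows of the genome, and both of its matches (RUNX and AP-2) lay in the repeat. The other 15 windows were masked over 0 to 37.5% of their bases. Counted outside repeats, RUNX matches were present in 1701 of 7554 mesenchyme-only and 1478 of 10206 epithelium-only windows.

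The start sites of these genes were mostly accessible in both tissues. A peak covered the start of the principal transcript in all 6 libraries for 7 of 9 genes (77.8%), beside 59.5% of all genes. The exceptions were Msx2, where the peak of epithelium replicate 3 ended 5 bp short of the start, and Bmpr1b. No library had a peak over the principal Bmpr1b start. The nearest peak lay 2614 to 13052 bp away in epithelium, and 56, 338 and 20864 bp away in mesenchyme. Another annotated Bmpr1b start, the 5′ end of the gene record 187161 bp upstream, was covered in all 6 libraries, by peaks of 1059, 1060 and 1081 bp in epithelium and 1093, 832 and 1184 bp in mesenchyme. This far start was looked at after the data were seen.

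**Figure D1:**
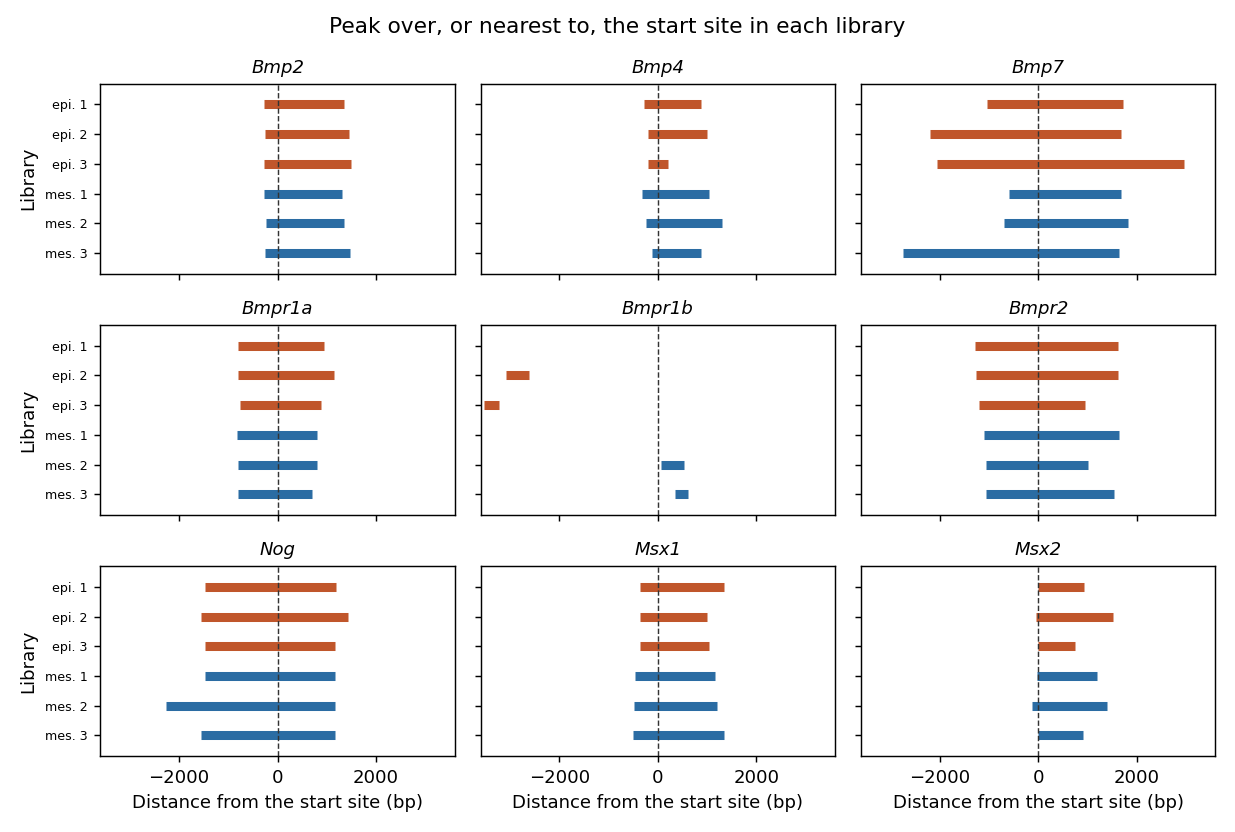
The peak over, or nearest to, the principal start site in each library is drawn as a bar against the distance from the start in bp, with upstream to the left, epithelium (epi.) in orange and mesenchyme (mes.) in blue. All bars cross the dashed start line for 7 genes, the bar of epithelium replicate 3 stops 5 bp short at Msx2, and none crosses it at Bmpr1b, where the nearest peaks of 2 libraries lie outside the plotted range.

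The widths of the peaks over the starts overlapped between the tissues for 6 of the 7 genes. Over the Msx1 start they measured 1723, 1377 and 1408 bp in epithelium and 1619, 1684 and 1844 bp in mesenchyme, and the groups overlapped. At Bmp4 they measured 1153, 1197 and 415 bp in epithelium and 1358, 1536 and 980 bp in mesenchyme. The narrowest was that of epithelium replicate 3, and the difference was within the spread of the libraries (exact two-sided permutation p = 0.4, n = 3 each). Bmp7 had the widest, 2775, 3874 and 5036 bp in epithelium and 2261, 2515 and 4379 bp in mesenchyme. Only at Bmpr1a did the groups not overlap, with 1745, 1956 and 1656 bp in epithelium (1786 ± 154, SD, n = 3) and 1620, 1607 and 1501 bp in mesenchyme (1576 ± 65.3, SD, n = 3). The exact two-sided permutation p was 0.1, the smallest that 3 against 3 libraries can give. Across all genes with a covered start, 13.4% had widths that did not overlap between tissues, so 1 of 7 is near that background.

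RefSeq promoter windows of Msx1, Msx2, Bmpr1a and Bmpr2 lay whole within a peak of all 6 libraries. That of Msx1 is shown because, of these, it alone lies entirely upstream of the principal start. The 250 bases before the RefSeq start (GRCm38) are printed in the direction of the gene, with motif matches in capitals.
Msx1, promoter, chr5:37824586-37824835, minus strand: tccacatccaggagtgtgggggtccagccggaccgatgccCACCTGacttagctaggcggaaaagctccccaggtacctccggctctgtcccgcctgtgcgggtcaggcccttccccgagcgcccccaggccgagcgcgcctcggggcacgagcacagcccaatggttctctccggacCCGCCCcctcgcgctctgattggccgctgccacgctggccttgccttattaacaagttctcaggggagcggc
The Msx1 promoter held a KLF match and an E-box match. Of the 9 genes, 6 had a RefSeq promoter entry (not Bmp2, Bmp7 and Nog). A KLF match stood in 5 of these 6, all but Bmpr1b, beside 32.7% of 32851 RefSeq promoters of the same length. An E-box match was present at Bmp4, Bmpr1b and Msx1 (17.2% of all), and a GC-rich Smad1/5 site at Bmpr1a and Bmpr2 (9.59%). The homeobox core stood at Bmpr1b alone among the 6 (7.17% of all). The Smad box also stood at Bmpr1b alone, although 42.2% of all promoters held it. A gene was counted when any of its RefSeq windows matched, whereas the shares are per promoter. Bmpr1b had several windows, and its homeobox core and E-box lay only in that of the principal start. That window lay whole within a peak of 0 libraries.

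To ask whether either tissue had more accessible sites around these genes, peaks per gene were compared with limma on log2(peaks + 1), after scaling to the mean list length, over 21724 genes. None of the 9 genes passed the threshold (adjusted p of 0.05), and none had an unadjusted p under 0.05, beside 17.9% of all genes. Across all genes, 340 (1.57%) had more and 389 (1.79%) had fewer peaks in epithelium, and without scaling these were 32 and 16. The scaled peak numbers of the tissues overlapped for all 9 genes, whereas they did not overlap for 22.0% of all genes. The median difference was -0.03 on the log2 scale over the 9 genes and -0.02 over all genes tested. These values are shown by library in the plot of scaled peaks.

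**Figure D2:**
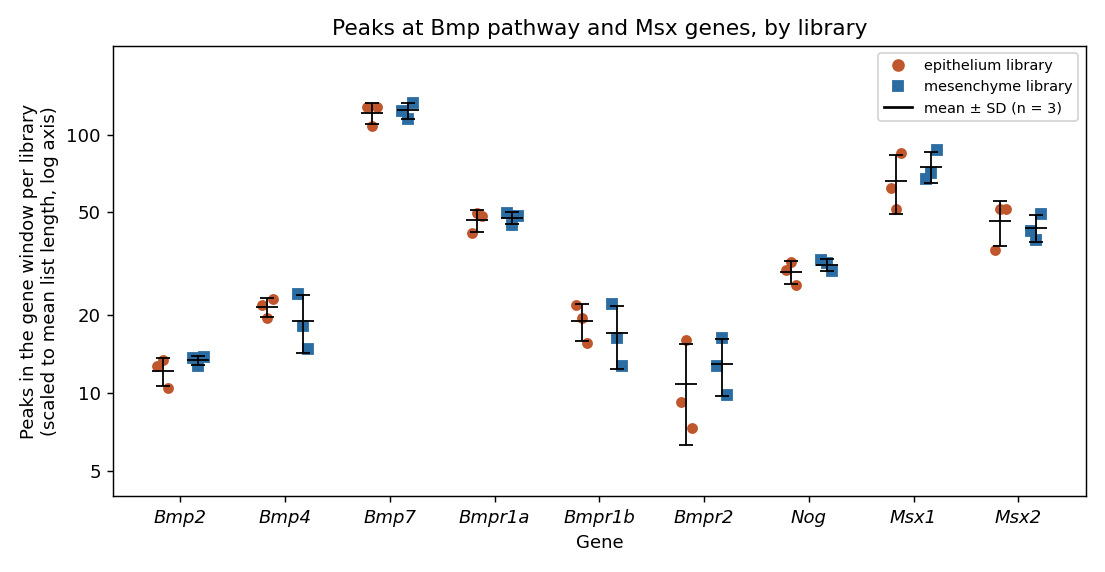
Scaled peaks in each gene window are plotted on a log axis, one point per library (orange circles, epithelium; blue squares, mesenchyme), with bars for the mean ± SD of 3 libraries. The points of the tissues overlap for every gene, and the means run from 10.9 peaks at Bmpr2 in epithelium to 124 at Bmp7 in mesenchyme.

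Among the ligands, Bmp7 had the most peaks. Bmp7 encodes a ligand expressed in many epithelia, and its window of 200 kb on chr2 (gene body 172868012 to 172940321) held 111, 121 and 122 peaks in epithelium and 117, 126 and 134 in mesenchyme. The tissues overlapped, the difference was -0.03 (log2, SE 0.10, 95% interval -0.23 to 0.17), and the adjusted p was 0.917. The mean put it at the 98.3 percentile of all genes. Of its 88 regions, 30 (34.1%) had a peak in all 6 libraries, and none was tissue-only as a merged region. Compared base by base, however, stretches of at least 100 bp within these wider regions were covered in all 3 libraries of a single tissue at 13 places, 7 in epithelium and 6 in mesenchyme. In the genome such stretches numbered 18371 and 18581. These are totals without shares, so whether 13 is many for a window this rich in peaks was not tested. The share of fully shared regions was the highest of the 9 genes, beside 19.1% in the genome and 22.1% (83 of 375) over all 9. The starts of Rae1, Rbm38 and Spo11 also lay in this window, and its peaks were not divided among these genes.

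Bmp4, a ligand made in facial epithelium and mesenchyme, had 19, 22 and 22 peaks in epithelium and 23, 20 and 15 in mesenchyme (chr14, gene body 46383520 to 46390669). The highest and the lowest value were both mesenchyme libraries. The difference was 0.19 (log2, SE 0.22, 95% interval -0.25 to 0.62, adjusted p = 0.701). Its window held 1 epithelium-only region, chr14:46306640-46307330, between genes and 83684 bp downstream of the start, with 450, 691 and 321 bp of peak in the 3 epithelium libraries. A further region had peaks in 3 epithelium libraries and 1 mesenchyme library.

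Bmp2, a ligand best known from bone formation, had the fewest peaks of the ligands, 11, 15 and 10 in epithelium and 13, 14 and 14 in mesenchyme (chr2, gene body 133552159 to 133562885). The difference was -0.14 (log2, SE 0.26, 95% interval -0.65 to 0.38, adjusted p = 0.832). There was no tissue-only region. Of its 14 regions, 2 had peaks in 3 epithelium libraries and 1 mesenchyme library, both between genes and 12497 and 14784 bp downstream of the start. With peaks of at least 300 bp alone, the Bmp2 difference became 0.69 (adjusted p = 0.182). It was also above 0 in a window of 50 kb (0.12) or 200 kb (0.08), so its sign depended on both choices.

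Of the receptors, Bmpr1a, a type I receptor used widely in the embryo, had 36, 56 and 46 peaks in epithelium and 47, 49 and 49 in mesenchyme (chr14, gene body 34410734 to 34503341). The epithelium values enclosed those of mesenchyme, and the difference was -0.03 (log2, SE 0.14, 95% interval -0.32 to 0.26, adjusted p = 0.935). The gene carried a tissue-only region of each kind in its introns. The mesenchyme-only region, chr14:34444964-34445859, lay 57275 bp from the start with 596, 873 and 577 bp of peak in mesenchyme. The epithelium-only region, chr14:34453737-34454050, lay 48793 bp from the start with 304, 217 and 304 bp of peak in epithelium. The window also held introns of Ldb3, where 4 regions had 3 peaks in 1 tissue and 1 in the other.

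Bmpr1b, a type I receptor best known in cartilage, spans the longest window of the set, 332.3 kb on chr3 (gene body 141837136 to 142169425), yet held only 19, 22 and 15 peaks in epithelium and 21, 18 and 13 in mesenchyme. The difference was 0.17 (log2, SE 0.23, 95% interval -0.30 to 0.63, adjusted p = 0.759). All 3 of its tissue-only regions were intronic. The wider epithelium-only region, chr3:142120071-142120880, had 438, 810 and 617 bp of peak in the epithelium libraries and lay 138212 bp upstream of the principal start, between it and the far start. The other epithelium-only region, chr3:141948402-141948893, had 302, 356 and 292 bp. The mesenchyme-only region, chr3:141940961-141941308, had 348, 225 and 199 bp, and 199 bp is the smallest width in the lists.

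Bmpr2, the type II receptor of the set, had 8, 18 and 7 peaks in epithelium and 12, 18 and 10 in mesenchyme (chr1, gene body 59763400 to 59879014). Replicate 2 was the highest library of each tissue, also after scaling. The difference was -0.28 (log2, SE 0.28, 95% interval -0.85 to 0.30, adjusted p = 0.662), and this interval was the widest of the 9 genes. Single libraries moved the value, to -0.57 without epithelium replicate 2, -0.06 without epithelium replicate 3, -0.10 without mesenchyme replicate 2 and -0.44 without mesenchyme replicate 3. Both of its tissue-only regions were mesenchyme-only and intronic, at chr1:59784218-59784544 with 272, 235 and 294 bp of peak, the repeat described above, and at chr1:59848073-59848319 with 199, 237 and 201 bp.

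Nog held 3 epithelium-only regions among its 40, the most of the 9 genes by count under the merging rule used here. By share Bmpr1b was higher, with 2 among its 22 regions, and the genome had 2.98%. Neither gene was tested for this. The order by count was not kept by other rules. With a window of 50 kb plus the gene body, Nog had 0 and Bmpr1b, a far longer gene, had 2. Stretches of at least 100 bp numbered 3 at Nog and 7 at Bmp7. The Nog gene is short (1.7 kb, chr11:89300638-89302332), and no other protein-coding start lay within 100 kb. The window held 26, 36 and 25 peaks in epithelium and 31, 35 and 30 in mesenchyme, which overlapped. The difference was -0.09 (log2, SE 0.17, 95% interval -0.44 to 0.26, adjusted p = 0.83). Chromosome 11 took 7.01 to 7.07% of epithelium peaks and 7.59 to 7.87% of mesenchyme peaks, and when peaks were scaled within the chromosome the Nog difference was 0.04 (adjusted p = 0.936).

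The widest tissue-only region at Nog, chr11:89239569-89240536, was epithelium-only and lay 62279 bp downstream of the start. It had 733, 842 and 607 bp of peak in the epithelium libraries, and its narrowest peak was wider than that of any of the other 15 tissue-only regions. The remaining epithelium-only regions lay 52123 bp downstream (chr11:89249826-89250592, 350, 700 and 319 bp) and 81594 bp upstream (chr11:89383690-89384161, 259, 444 and 317 bp). A mesenchyme-only region stood 88529 bp downstream (chr11:89213637-89213969, 306, 260 and 308 bp). All 4 were between genes. Only 2 of the 40 Nog regions (5%) had a peak in all 6 libraries, the lowest share of the 9 genes. With up to 1 peak allowed in the other tissue, Nog had 4 regions of each kind (10% each). In the genome 5.67% were of the epithelium kind and 5.98% of the mesenchyme kind.

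Msx1 was the gene whose regions leaned most to the mesenchyme by count. Its window on chr5 (gene body 37820485 to 37824583) held 54, 58 and 81 peaks in epithelium and 64, 78 and 88 in mesenchyme. Epithelium replicate 3 lay above 2 of the 3 mesenchyme libraries, so the groups overlapped, and the difference was -0.20 (log2, SE 0.14, 95% interval -0.47 to 0.08, adjusted p = 0.466). Without that library it was -0.39 (adjusted p = 0.142), and without epithelium replicate 2 it was -0.04. Bases covered by peaks gave -0.29 (log2, SE 0.13, 95% interval -0.56 to -0.01), with an unadjusted p of 0.0403 and an adjusted p of 0.15 in limma.

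All 3 tissue-only regions at Msx1 were mesenchyme-only and between genes. They lay 56872 bp downstream of the start (chr5:37767301-37768120, with 780, 288 and 679 bp of peak), 41108 bp upstream (chr5:37865303-37866079, 199, 691 and 600 bp) and 55561 bp upstream (chr5:37879773-37880515, 376, 286 and 424 bp). The peaks of the region 55561 bp upstream barely overlapped, since all 3 libraries shared only chr5:37880317-37880350. Just outside the rule, 7 regions had peaks in 3 mesenchyme libraries and 1 epithelium library, against 2 of the opposite kind. Of the 7, 1 lay over a coding exon of Cytl1. The start of Cytl1 is also in this window, and regions were not divided between the genes. The nearest of the 7 was 1419 bp upstream of the start, chr5:37825627-37826376, with its 1 epithelium peak in replicate 3. With up to 1 peak in the other tissue allowed, 10 of 82 Msx1 regions (12.2%) were of the mesenchyme kind and 2 (2.44%) of the epithelium kind. Over all 9 genes these shares were 6.4% and 4.8%, and in the genome 5.98% and 5.67%. By share Bmpr2 leaned more to the mesenchyme, with 2 of its 12 regions (16.7%) of the mesenchyme kind and 0% of the epithelium kind. Regions of a single window share libraries and neighbours, and neither the count at Msx1 nor the share at Bmpr2 was tested.

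Msx2 had a tissue-only region near its start. Its window on chr13 (gene body 53466884 to 53473074) held 31, 58 and 49 peaks in epithelium and 40, 43 and 50 in mesenchyme. The epithelium libraries enclosed the others, and the difference was 0.07 (log2, SE 0.16, 95% interval -0.24 to 0.39, adjusted p = 0.859). The epithelium-only region, chr13:53470676-53471222, lay in the Msx2 intron 2125 bp downstream of the start, with 495, 464 and 388 bp of peak. It was the nearest to a start among all 16 tissue-only regions, of which 15 lay over 20 kb away. A region over the coding exon 4704 bp from the start had peaks in all 3 mesenchyme libraries and in epithelium replicate 2, so neighbouring parts of this short gene were called differently.

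**Figure D3:**
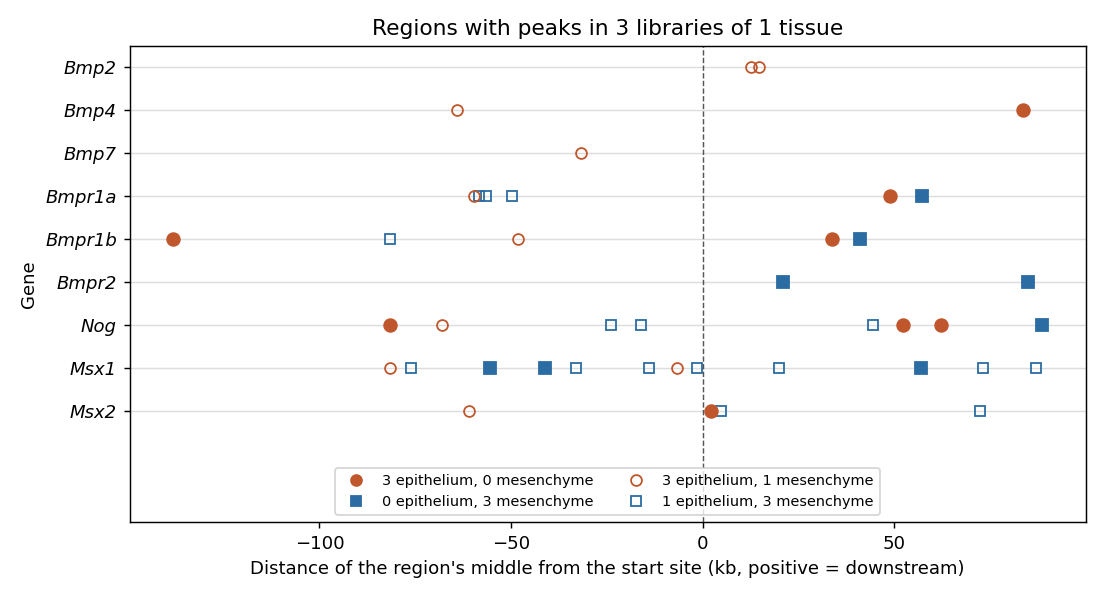
Each symbol is a region with peaks in 3 libraries of a tissue, placed by the distance of its middle from the principal start in kb (negative, upstream), with filled symbols for none and open symbols for 1 library of the other tissue (orange circles, epithelium; blue squares, mesenchyme). The 8 filled circles include 3 at Nog and the one 2125 bp from the Msx2 start, and the 3 filled and 7 open squares at Msx1 lie on both sides of its start.

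Bases covered by peaks, a readout of width and number together, placed no gene of the 9 past the threshold in limma either, and Msx1 alone had an unadjusted p under 0.05. Over 21761 genes, 1315 (6.04%) had more and 1616 (7.43%) had fewer covered bases in epithelium. At an unadjusted p under 0.05 these were 2755 and 3570. The differences of the 9 genes ran from -0.29 at Msx1 to 0.20 at Bmp2 (log2). At Bmp2, scaled covered bases were 6.67, 6.45 and 6.12 kb in epithelium and 5.8, 5.18 and 5.72 kb in mesenchyme. Those libraries did not overlap, as for 32.1% of all genes, and the difference was 0.20 (SE 0.20, adjusted p = 0.532). At Bmp7 the difference was -0.02, with an interval of -0.19 to 0.15.

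**Figure D4:**
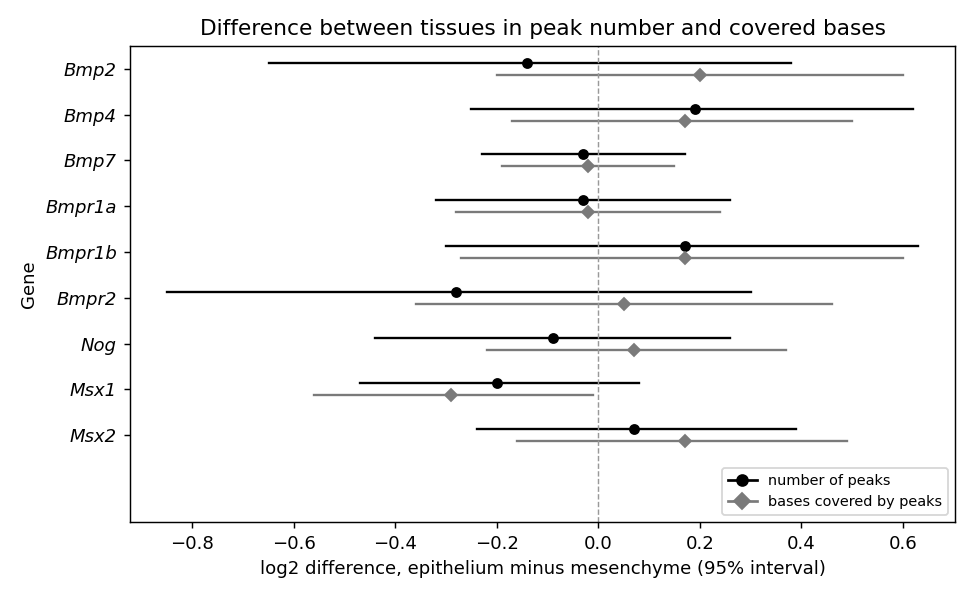
Points give the log2 difference, epithelium minus mesenchyme, and lines its 95% interval from limma, for the number of peaks (black circles) and the bases covered by peaks (grey diamonds). Every interval for peak number spans 0, and for covered bases that of Msx1 ends just below 0 (-0.01), before adjustment over all genes.

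The other genes of the pathway were taken from a list of 38 ligands, receptors, antagonists, Smads and targets. In peak number 1 of the 38 passed the threshold, Gdf5, a ligand best known in joint formation, and none passed with more peaks in epithelium, while 8 (21.1%) had an unadjusted p under 0.05 in either direction, near the 17.9% of all genes. Gdf5 had 38, 55 and 50 peaks in epithelium and 72, 86 and 63 in mesenchyme, and the difference was -0.56 (log2, SE 0.13, adjusted p = 0.0105). When each peak was given only to the nearest start on either side, the Gdf5 difference was 0.11 (adjusted p = 0.911), and leaving out a library gave -0.66 to -0.49, past the threshold for 3 of 6 libraries left out (not without epithelium replicate 1, mesenchyme replicate 1 or mesenchyme replicate 2). It also missed the threshold without scaling (adjusted p = 0.124), without the filter (0.116), within 50 kb (0.066), with peaks of at least 300 bp (0.249) and without the mean trend (0.152), and passed under 12 of 21 alternatives in all. The median difference of the 38 genes was -0.05 (all genes, -0.02).

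In covered bases, 3 of the 38 genes rose in epithelium and 4 fell, beside 6.04% and 7.43% of all genes. Those with more covered bases were Sostdc1, a secreted Bmp antagonist (0.79, adjusted p = 0.00378), Fst, which encodes the activin and Bmp antagonist follistatin (0.62, adjusted p = 0.0167), and the type I receptor gene Acvr1 (0.50, adjusted p = 0.0285). Those with fewer were Gdf5 (-0.48, adjusted p = 0.0165), the signal transducer Smad5 (-0.42, adjusted p = 0.0239), the inhibitory Smad6 (-0.42, adjusted p = 0.00247) and the target gene Id3 (-0.29, adjusted p = 0.0323). Of these 7, Gdf5 alone also passed in peak number. In scaled peaks all epithelium libraries lay above all mesenchyme libraries for 4 of the 38 genes, and below them for 7, beside 22.0% of all genes in either direction.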

How the data were processed

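ATAC-seq was run on palatal epithelium and mesenchyme of E14.5 embryos (3 libraries each). Per the labels and the study's methods, the authors trimmed reads with Trimmomatic 0.38, used Bowtie2 for mapping to mm10 and SAMtools against PCR duplicates, ran deepTools 2.0, kept fragments under 100 bp and called peaks in each library with MACS2 2.1.1 without a local background model, at a threshold not given in the sources used here. The deposited files hold peak positions only, so read depth is unknown and the study's read-based comparison (DiffBind) could not be run. Peaks were counted per protein-coding gene (GENCODE M21, principal transcript start, 100 kb or gene body), scaled to the mean list length, and compared on log2(peaks + 1) with limma 3.58.1 in R 4.3.3 (mean trend, two-sided, Benjamini-Hochberg over the 21724 genes that averaged 1 peak or more). Bases covered by peaks were compared in the same way, with 200 bp added. Peaks of 199 bp are the narrowest in the lists. The limma step was tested on simulated data. Groups came from the sample labels. All 9 genes are named, with every pathway gene past the threshold in peaks or covered bases, and the tissue-only regions with the widest peaks or nearest to a start, with the others of the 16 beside them. The genes, lists and motifs were chosen with earlier results of these data known. Motifs were searched with Python 3.11.15. Alternatives covered scaling, pseudocount, filter, window, start site, peak width, merging, left-out libraries and a replicate block.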

Additional observations from a re-analysis of the deposited data

How the results depend on the processing

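No gene of the 9 passed the threshold under any of the 21 other settings of the peak comparison, where their lowest adjusted p in limma was 0.142 (Msx1 without epithelium replicate 3). At an unadjusted p under 0.05 there were 3 of them with peaks of at least 300 bp (Bmp2, Bmp4 and Msx1), 1 in covered bases and 1 without epithelium replicate 3 (both Msx1), and 0 under the rest. Of all genes, 1788 had more and 2301 had fewer at that p among 21247 with peaks of at least 300 bp. These were 2755 and 3570 of 21761 in covered bases, and 1469 and 2221 of 21713 without epithelium replicate 3. The sign of the difference was the same in all 21 settings for Msx1 (-0.39 to -0.04) and changed in 1 to 4 settings for each of the other 8 genes, whose values lay between -0.67 and 0.69. Over all genes, those with more and with fewer peaks in epithelium, 340 and 389, became 32 and 16 without scaling, 231 and 235 with scaling by chromosome, 0 and 1 without the filter, 186 and 160 in a 50 kb window, 610 and 832 in a 200 kb window, 117 and 92 by the nearest start, 1315 and 1616 in covered bases and 3 and 0 without the mean trend. Leaving out a library gave 154 to 289 and 151 to 284, the lowest without epithelium replicate 1 and without mesenchyme replicate 2. Under no trend and no filter, 1790 and 1465 genes had more and 1608 and 2133 had fewer peaks at an unadjusted p under 0.05.

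Libraries of the tissues share replicate numbers, and both tissues were taken from the same dissections, but no source used here says that a number marks the same embryos in both. Deviations of same-numbered pairs correlated at 0.0183, 0.0512 and -0.0079, and epithelium replicate 3 correlated best with mesenchyme replicate 1 (0.0219), so the pairing could be neither established nor excluded from the data. With a replicate block 445 and 601 genes passed and none of the 9, whose lowest adjusted p was 0.36, and Smad6 passed in peak number (-0.32, adjusted p = 0.0181, against 0.0645 without the block). At Gdf5, the nearest start on each side gave 0.11 in place of -0.56, and the cause was not tested.

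The 8 epithelium-only and 8 mesenchyme-only regions became 18 and 24 with up to 1 peak in the other tissue. When stretches of at least 100 bp were compared in place of merged regions, they were 21 and 22 (genome, 18371 and 18581, totals without shares). They were 4 and 5 with a window of 50 kb, and 13 and 17 with 200 kb, the gene body being kept in each. Intronic regions over 50 kb from the start thus still counted at Bmpr1a, Bmpr1b and Bmpr2. With peaks of at least 300 bp they were 8 and 5. Leaving out a library, which loosens the rule, gave 10 to 16 and 13 to 20. Every library left out moved at least one of the counts by over 1.5 times (16 and 13, 15 and 16 or 13 and 15 without epithelium replicate 1, 2 or 3, and 12 and 20, 10 and 18 or 13 and 20 without mesenchyme replicate 1, 2 or 3). The counts of the genome, 10206 and 7554, rose as well, to 12884 to 20972 and 10667 to 20183 with a library left out. Msx1 had 3 to 10 mesenchyme-only and 0 to 3 epithelium-only regions under every one of these settings but the 50 kb window and the 300 bp minimum (1 and 0 each). The number of start sites covered in every library was 7 or 8 under alternatives chosen after seeing the data. A peak list carries no depth, so a peak missed by the caller cannot be told from closed chromatin.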
